A study of Mus musculus with 2 samples.

Results

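Cathepsins are a group of peptidases found mainly in the lysosome, the acidic compartment in which cells break down proteins that they take up or replace. Most are cysteine peptidases of the papain family, while cathepsin D is an aspartic peptidase and cathepsin A is a serine carboxypeptidase. They are made as inactive proenzymes, carried to the lysosome by mannose 6-phosphate receptors and activated at low pH, and part of them can be secreted. Cystatin C, encoded by *Cst3*, is a secreted protein that blocks cysteine cathepsins by filling their active site. In connective tissue, cathepsin K is known for cleaving triple-helical collagen, and cathepsins B, D and L take part in the turnover of endocytosed matrix. The genes described here were chosen by name: the rows of the count table for *Ctsa*, *Ctsb*, *Ctsc*, *Ctsd*, *Ctsf*, *Ctsh*, *Ctsk*, *Ctsl*, *Ctsz* and *Cst3*. Each name was found in a single row, which gave 10 genes of the 24421 rows.

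The data comprised 1 RNA-Seq library of primary chondrocytes, released by collagenase from the rib cartilage of newborn mice and used within a few passages, and 1 library of primary dermal fibroblasts from the dorsal skin of newborn mice. No strain, genotype or treatment is given for either cell type, and the study used the comparison to find genes that are more highly expressed in chondrocytes. The deposited values were read counts per gene that summed to 18788599 in chondrocytes and 17563724 in dermal fibroblasts, and 14291 genes had at least 10 counts in at least 1 library. Since each cell type had 1 library, no difference was set against the variation between cultures or animals, no p-value was computed, and each 95% interval below covers counting error only.

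The libraries carried the markers of their labels. All 6 chondrocyte markers examined were over 2-fold higher in chondrocytes, and *Col2a1*, the main collagen of cartilage, had 1447098 counts there against 0. Of 6 fibroblast markers, 5 were over 2-fold higher in dermal fibroblasts, among them *Col1a1* with 322379 counts against 39143, whereas *Lum* lay within 2-fold. Markers of other cell types were read as well. The summed level of 6 keratinocyte markers was 8.93 counts per 1000000 (CPM) in chondrocytes and 249 CPM in dermal fibroblasts, and that of 6 skeletal muscle markers was 1510 and 1190 CPM. CPM were computed on library sizes corrected with edgeR TMM factors, and a fold is the CPM in dermal fibroblasts divided by the CPM in chondrocytes unless the opposite is stated. In such bulk libraries, more cells of a type and more RNA per cell cannot be told apart.

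All 10 genes had a higher level in dermal fibroblasts than in chondrocytes, as did 50.2% of all genes tested. Every counting interval of the 10 genes lay above 1, but the share of all genes with such an interval was not computed. The fold was over 2 for 7 of the 10 genes, and for the same 7 the whole interval lay above 2, while none was over 2-fold higher in chondrocytes. Of all 14291 genes, 16.2% passed 2-fold in the direction of dermal fibroblasts, 10.8% had their whole interval there, and 11.8% were over 2-fold higher in chondrocytes. Among the 11162 genes with at least 100 counts in at least 1 library, which include all 10 genes, 13.3% passed 2-fold in that direction. The median log2 fold of chondrocytes over dermal fibroblasts was -1.40 for the 10 genes and 0.00 for all genes, which is a median fold of 2.64 toward dermal fibroblasts. The folds differed among the genes by up to 7.10 times, from *Ctsk* to *Ctsd*.

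**Figure D1:**
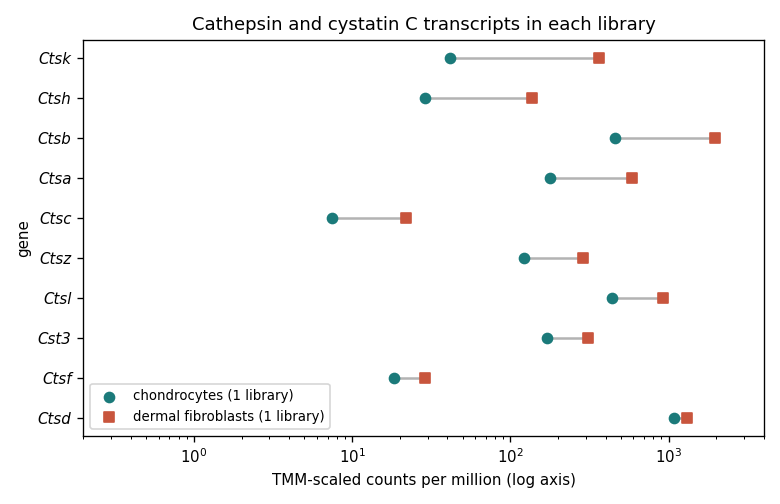
TMM-scaled CPM (log axis) of the 9 cathepsins and *Cst3* in the chondrocyte library (circles) and the dermal fibroblast library (squares), ordered by fold. Each square lies to the right of its circle, with the widest gap for *Ctsk* (41.8 and 361 CPM) and the narrowest for *Ctsd* (1080 and 1310 CPM).

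*Ctsk*, which encodes the collagen-cleaving cathepsin K, differed most. It had 750 counts in chondrocytes against 6644 in dermal fibroblasts, a level of 41.8 against 361 CPM. The fold was 8.63 (interval 8.0 to 9.31), larger than that of 97.5% of the genes tested. *Ctsk* is also a marker of osteoclasts, the bone-resorbing cells of the macrophage lineage. The osteoclast receptor gene *Calcr* had 0 counts in both libraries, which allows up to 3 counts, and the fusion genes *Dcstamp* and *Ocstamp* had 0 counts in chondrocytes against 9 and 4 in dermal fibroblasts. *Acp5*, the tartrate-resistant acid phosphatase, had 59 and 61 counts, and *Oscar* had 2 and 1. Of the 4 osteoclast markers with at least 10 counts in a library, 3 were over 2-fold higher in dermal fibroblasts, as were 16.2% of all genes tested. These 3 markers were *Itgb3* (135 and 699 counts), *Mmp9* (101 and 468 counts) and *Tnfrsf11a* (29 and 101 counts). The 8 osteoclast markers summed to 18.2 CPM in chondrocytes and 72.9 CPM in dermal fibroblasts. The part of osteoclasts in the *Ctsk* reads was not tested.

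*Ctsb*, the most read of these genes in dermal fibroblasts, encodes cathepsin B, an endopeptidase that also removes dipeptides from the C-terminus. It had 8188 counts in chondrocytes against 36521 in dermal fibroblasts, which is 457 and 1980 CPM and a fold of 4.34 (interval 4.24 to 4.45). *Ctsl*, encoding the endopeptidase cathepsin L, had 7840 and 17034 counts, or 437 and 925 CPM. Its fold of 2.12 (interval 2.06 to 2.17) was the smallest of those over 2. In chondrocytes *Ctsb* and *Ctsl* therefore had similar counts, whereas in dermal fibroblasts *Ctsb* had the larger number. *Ctsf*, which encodes the less abundant endopeptidase cathepsin F, had 329 and 531 counts, and its fold of 1.57 (interval 1.37 to 1.81) stayed below 2. Thus the 4 cysteine endopeptidase genes did not share a common difference, and their folds ranged from 1.57 to 8.63.

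The cysteine exopeptidases trim proteins from their ends. *Ctsh*, encoding the aminopeptidase cathepsin H, had 517 counts in chondrocytes against 2528 in dermal fibroblasts, or 28.8 and 137 CPM. With a fold of 4.76 (interval 4.33 to 5.24) it came after *Ctsk* in the order of folds. *Ctsz*, encoding the carboxypeptidase cathepsin Z, had 2178 and 5285 counts and a fold of 2.36 (interval 2.25 to 2.48). *Ctsc* encodes the dipeptidyl peptidase that activates the serine proteases of granulocytes, cytotoxic lymphocytes and mast cells. It had the fewest reads of the 10 genes, with 133 counts in chondrocytes against 402 in dermal fibroblasts, so that its fold of 2.94 had the widest interval relative to its size (2.41 to 3.61).

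Outside the cysteine group, *Ctsd*, encoding the aspartic peptidase cathepsin D, was the most read cathepsin in chondrocytes, with 19381 counts, against 24183 in dermal fibroblasts. Its levels of 1080 and 1310 CPM gave the smallest fold, 1.21 (interval 1.19 to 1.24), larger than that of 64.9% of the genes tested. *Ctsa*, encoding the serine carboxypeptidase that also protects beta-galactosidase and neuraminidase in the lysosome, had 3191 and 10790 counts and a fold of 3.29 (interval 3.16 to 3.43). *Glb1* and *Neu1*, which encode these partner enzymes, had folds of 2.45 (interval 2.23 to 2.69) and 3.77 (interval 3.25 to 4.38). Both were named for this role, after their values were seen. The inhibitor gene *Cst3* had 3042 counts in chondrocytes against 5719 in dermal fibroblasts, or 170 and 311 CPM, with a fold of 1.83 (interval 1.75 to 1.91). It lay within 2-fold with TMM factors and reached 2.01 with total counts.

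**Figure D2:**
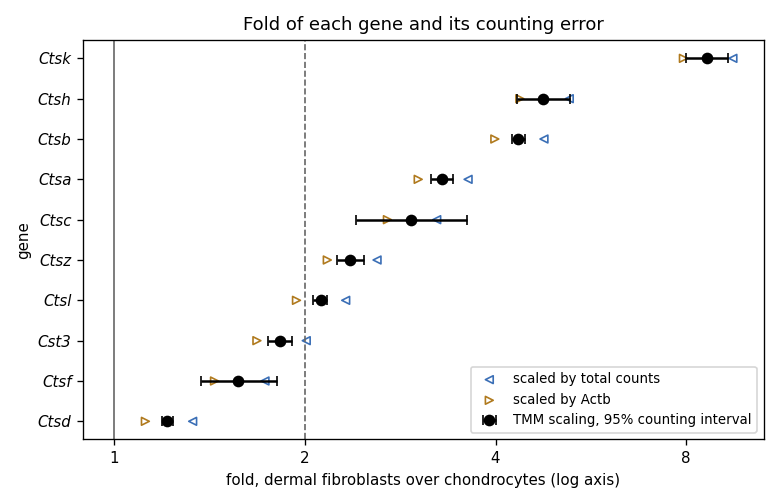
Fold of dermal fibroblasts over chondrocytes (log axis) for each gene, with 95% counting intervals as bars, and the fold after scaling by total counts or by *Actb* as open triangles. The solid line marks equal levels and the dashed line 2-fold. With TMM scaling *Ctsk*, *Ctsh* and *Ctsb* lie above 4, but *Ctsb* is at 3.99 with *Actb*. *Cst3* and *Ctsl* lie close enough to 2 to cross it with the scaling.

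The order of the folds was compared between neighbours by the ratio of their folds, which does not depend on the scaling. The fold of *Ctsk* was 1.81 times that of *Ctsh* (interval 1.61 to 2.04). *Ctsh* and *Ctsb* were not told apart at this depth, as the ratio of their folds was 1.10 (interval 0.994 to 1.21). The same held for *Ctsa* and *Ctsc*, with a ratio of 1.12 (interval 0.916 to 1.37). The ratio of *Ctsl* to *Cst3* was 1.16 (interval 1.10 to 1.22), and the other neighbours, namely *Ctsb* and *Ctsa*, *Ctsc* and *Ctsz*, *Ctsz* and *Ctsl*, *Cst3* and *Ctsf*, and *Ctsf* and *Ctsd*, also had intervals that excluded 1.

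Levels of different genes were compared per kb of exon, with lengths from GENCODE vM1. In chondrocytes *Ctsd* was highest at 429 CPM per kb, followed by *Ctsl* at 221, *Cst3* at 134, *Ctsb* at 96.4, *Ctsz* at 84.3, *Ctsa* at 37.8 and *Ctsk* at 28.2 CPM per kb. *Ctsf* and *Ctsh* followed at 9.29 and 8.36 CPM per kb and did not differ beyond counting error, and *Ctsc* was lowest at 1.28 CPM per kb. In dermal fibroblasts *Ctsd* was again highest at 521 CPM per kb, but *Ctsl* at 468 and *Ctsb* at 419 CPM per kb came close to it. *Cst3* and *Ctsk* had nearly the same level there, 245 and 244 CPM per kb, with a ratio of 1.01 (interval 0.973 to 1.04), whereas in chondrocytes the level of *Cst3* lay above that of *Ctsk* by a wide margin. *Ctsz* at 199, *Ctsa* at 124, *Ctsh* at 39.8, *Ctsf* at 14.6 and *Ctsc* at 3.76 CPM per kb completed the order. The length used matters for some of these levels. With the longest transcript in place of all exons, *Cst3* was at 197 CPM per kb in chondrocytes and 361 CPM per kb in dermal fibroblasts, above *Ctsk* in both, and *Ctsc* was at 2.31 and 6.8 CPM per kb. In dermal fibroblasts *Ctsd* was then at 617 CPM per kb, farther above *Ctsl* at 469 and *Ctsb* at 419 CPM per kb.

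The make-up of the cathepsin reads therefore differed between the libraries. The 9 cathepsins took 42507 reads, 0.226% of all counts, in chondrocytes (interval 0.224 to 0.228%) and 103918 reads, 0.592%, in dermal fibroblasts (interval 0.588 to 0.595%). *Ctsd* accounted for 45.6% of the cathepsin reads in chondrocytes (interval 45.1 to 46.1%) and for 23.3% in dermal fibroblasts (interval 23.0 to 23.5%). *Ctsb* accounted for 19.3% and 35.1%, and *Ctsk* for 1.76% and 6.39%. The share of *Ctsz* was nearly the same in the libraries (5.12% and 5.09%). That of *Ctsl* was 18.4% in chondrocytes (interval 18.1 to 18.8%) and 16.4% in dermal fibroblasts (interval 16.2 to 16.6%). These shares are of reads and thus also reflect gene length. Per kb, *Ctsd* made up 46.8% and 25.6%, *Ctsb* 10.5% and 20.6%, and *Ctsk* 3.08% and 12%.

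**Figure D3:**
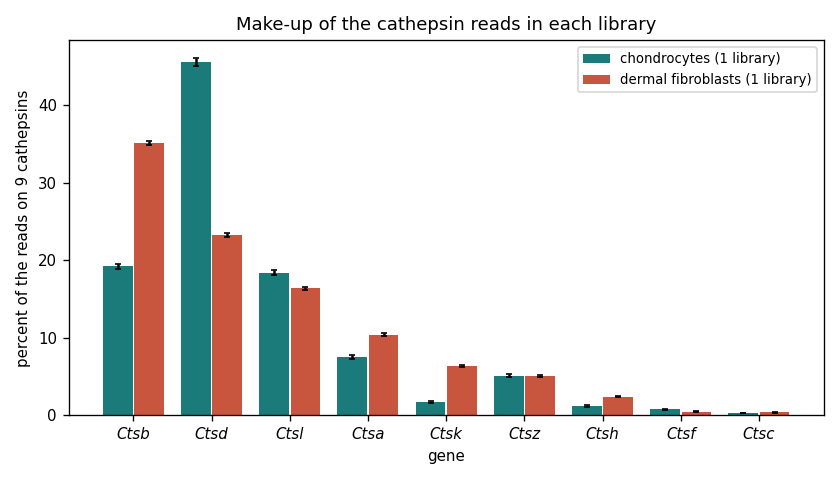
Percent of the reads on the 9 cathepsins that fell on each gene, in the chondrocyte and the dermal fibroblast library, with 95% counting intervals as bars. *Ctsd* takes the largest share in chondrocytes (45.6%) and *Ctsb* the largest in dermal fibroblasts (35.1%).

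The reads of the enzymes were also set against those of their inhibitor within each library. The 7 cysteine cathepsins had 19935 reads against 3042 of *Cst3* in chondrocytes, a ratio of 6.55 (interval 6.31 to 6.81). In dermal fibroblasts they had 68945 against 5719, a ratio of 12.1 (interval 11.7 to 12.4). The ratio was higher in dermal fibroblasts also without *Ctsb* (3.86 and 5.67), without *Ctsl* (3.98 and 9.08) and per kb of exon (3.35 and 5.66). Among the other cystatins, the intracellular inhibitor gene *Cstb* had 536 and 1515 counts and a fold of 2.75 (interval 2.49 to 3.04). *Cst6* had 122 and 262 counts, and its fold of 2.09 had an interval from 1.68 to 2.61. Of the 17 cystatin family genes besides *Cst3*, 4 had at least 10 counts in a library, and the remaining pair, *Fetub* (35 and 3 counts) and *Kng1* (31 and 2 counts), was higher in chondrocytes. *Cst10* was among 8 genes of the family with 0 counts in both libraries.

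Some reads may be shared with neighbouring genes, because the use of strand in the counting is not stated. *Ctsa* (chromosome 2 of GRCm38, 164832872 to 164841032, plus strand) overlaps *Pltp* by 1515 bp and *Neurl2* by 725 bp, both on the minus strand. *Pltp* had 143 counts in chondrocytes against 840 in dermal fibroblasts, and *Neurl2* had 25 and 60. *Ctsb* (chromosome 14, 63122462 to 63145923) shares 774 bp with *Fdft1*, which had 697 and 3574 counts, and *Ctsz* (chromosome 2, 174427494 to 174439039) shares 12 bp with *Nelfcd*. In each library these neighbours had fewer counts than the cathepsin gene they overlap. Such counts do not bound the reads that fall in an overlap, and the effect of these reads on the folds was not tested. No other gene of the RefSeq annotation overlapped *Ctsk* (chromosome 3, 95499210 to 95509387, plus strand), *Ctsd* (chromosome 7, 142375910 to 142387827, minus strand), *Ctsh* (chromosome 9, 90054267 to 90076095), *Ctsl* (chromosome 13, 64361890 to 64370772, minus strand), *Ctsc* (chromosome 7, 88278024 to 88315861, plus strand), *Ctsf* (chromosome 19, 4855165 to 4860918, plus strand) or *Cst3* (chromosome 2, 148871722 to 148875512, minus strand).

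Lysosomal genes are known targets of the TFEB, TFE3 and MITF transcription factors, which bind E-boxes with the palindromic core CACGTG. This core reads the same on both strands, and it was searched in the RefSeq promoter windows (GRCm38.p6), which run from 250 bases before to 50 bases after a transcription start. Windows were found for *Ctsa*, *Ctsc*, *Ctsd*, *Ctsf*, *Ctsk*, *Ctsl*, *Ctsz* and *Cst3*, that is for 8 of the 10 genes, and not for *Ctsb* and *Ctsh*. The core was in a window of 4 of these 8 genes, namely *Ctsa*, *Ctsd*, *Ctsf* and *Ctsl*. The windows of *Ctsl* and *Ctsc* and the window of *Ctsa* that holds the core are set on starts downstream of the annotated 5′ end of the gene, so that the matches of *Ctsl* and *Ctsa* lie inside the annotated gene. Among all 32851 windows 7.15% held it, as did a window of 11.6% of the 10764 tested genes that had one and of 28 of 106 genes in the lysosome lists described below (26.4%). The matches are shown 5′ to 3′ on the strand of the gene with the core in capitals, and no other motif was searched. For contrast, the 100 bases before the start of *Ctsk*, the gene with the largest fold, are shown without a match.
Ctsd at 98 bases before the start, chr7:142387908-142387937, minus strand: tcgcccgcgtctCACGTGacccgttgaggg
Ctsd at 245 bases before the start, chr7:142388055-142388077, minus strand: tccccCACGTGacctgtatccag
Ctsa at 12 bases before its downstream start, chr2:164833749-164833778, plus strand: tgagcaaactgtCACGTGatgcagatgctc
Ctsa at base 6 after that start, chr2:164833766-164833795, plus strand: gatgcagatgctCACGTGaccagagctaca
Ctsf at 79 bases before the start, chr19:4855074-4855103, plus strand: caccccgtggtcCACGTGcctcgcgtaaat
Ctsl at 236 bases before its downstream start, chr13:64370739-64370768, minus strand: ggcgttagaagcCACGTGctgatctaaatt
Ctsk, no match in the window, chr3:95499110-95499209, plus strand: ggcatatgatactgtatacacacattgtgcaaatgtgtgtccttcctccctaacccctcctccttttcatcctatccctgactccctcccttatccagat

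The 4 genes with the core had folds from 1.21 (*Ctsd*, with the core at 2 positions) to 3.29 (*Ctsa*), and the 4 without it had folds from 1.83 (*Cst3*) to 8.63 (*Ctsk*), so that the ranges overlapped. Among the windows of these genes, that of *Ctsk* had the lowest content of G and C, 43.7%, and that of *Ctsd* the highest, 67.3%. The next lowest was that of *Ctsl*, with a fold of 2.12. The windows of *Ctsf*, *Cst3*, *Ctsc* and *Ctsz* had contents from 59.7% to 61.0%, while the folds of these genes ranged from 1.57 to 2.94. Whether this content goes with the fold was not tested, and *Ctsb* and *Ctsh* had no window. Of the factors themselves, *Mitf* had 150 counts in chondrocytes against 599 in dermal fibroblasts, with a fold of 3.89 (interval 3.25 to 4.68). *Tfeb* had 207 and 126 counts and was 1.69-fold higher in chondrocytes, and *Tfe3* had 1266 and 1414 counts and a fold of 1.09. The related *Tfec* had 7 and 31 counts. *Mitf*, *Tfe3* and *Tfec* were named after their values were seen.

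Other genes of the lysosome were examined in 7 lists. Of 130 genes with at least 10 counts in a library, 57 (43.8%) were over 2-fold higher in dermal fibroblasts and 3 were over 2-fold higher in chondrocytes, and 108 had a fold above 1. Among all genes tested, 16.2% and 11.8% passed 2-fold in these directions, and 50.2% were higher in dermal fibroblasts. Their median log2 fold of chondrocytes over dermal fibroblasts was -0.85, against -1.40 for the cathepsins with *Cst3* and 0.00 for all genes. Among lysosomal peptidases outside the cathepsins, 5 of 8 were over 2-fold higher in dermal fibroblasts. *Dpp7*, a dipeptidyl peptidase, had 174 and 2041 counts and a fold of 11.4 (interval 9.78 to 13.4), larger than that of *Ctsk*. *Lgmn*, the asparaginyl endopeptidase legumain that processes cathepsin proenzymes, had 1606 and 4125 counts and a fold of 2.50 (interval 2.36 to 2.65), whereas *Scpep1*, a carboxypeptidase, lay within 2-fold at 1.72.

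The glycosidases and sulfatases degrade glycosaminoglycans and glycoproteins, and 12 of 28 passed 2-fold toward dermal fibroblasts. They included *Hexa* with a fold of 3.08, while *Ids* and *Idua*, enzymes of heparan and dermatan sulfate breakdown, were 1.66-fold and 1.58-fold higher in chondrocytes. Of the lipid hydrolases and activators, 7 of 13 were over 2-fold higher in dermal fibroblasts, among them *Psap*, the precursor of the saposins, with 15079 and 44958 counts. Of the membrane proteins, 12 of 21 were, including *Lamp1* (fold 2.78, interval 2.71 to 2.85), and *Abcb9* was 2.71-fold higher in chondrocytes. Of the subunits of the V-ATPase, the proton pump that acidifies the lysosome, 10 of 21 were over 2-fold higher in dermal fibroblasts. *Atp6v0a4*, a subunit isoform, was 8.94-fold higher in chondrocytes with 174 against 20 counts, and *Atp6v0c* was listed at 0 in both libraries. Since the counting program and its annotation are not given, this 0 was not read as absent expression.

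The genes that tag and sort cathepsins differed less. Of 20 genes for mannose 6-phosphate tagging and sorting, 3 (15.0%) were over 2-fold higher in dermal fibroblasts, close to the 16.2% of all genes. However, 16 of the 20 were higher in dermal fibroblasts, against 50.2% of all genes. The median log2 fold of chondrocytes over dermal fibroblasts was -0.46. *Gnptab*, which encodes subunits of the enzyme that begins the tag, had a fold of 1.38, and the cation-dependent receptor gene *M6pr* had a fold of 1.04 (interval 0.985 to 1.10). Both were named after their values were seen. *Igf2r*, the cation-independent receptor that also binds IGF2, had 14412 counts in chondrocytes against 7538 in dermal fibroblasts and was 1.96-fold higher in chondrocytes, the direction opposite to that of all 9 cathepsins. *Lrp1*, an endocytic receptor, had a fold of 2.09. Among 19 regulators of lysosome biogenesis and nutrient sensing, 8 were over 2-fold higher in dermal fibroblasts, led by *Flcn* (393 and 2167 counts) and *Rragd* (162 and 742 counts). *Rragb*, another Rag GTPase, was 4.93-fold higher in chondrocytes (interval 2.80 to 9.26) with 72 against 15 counts, and was named after its values were seen.

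**Figure D4:**
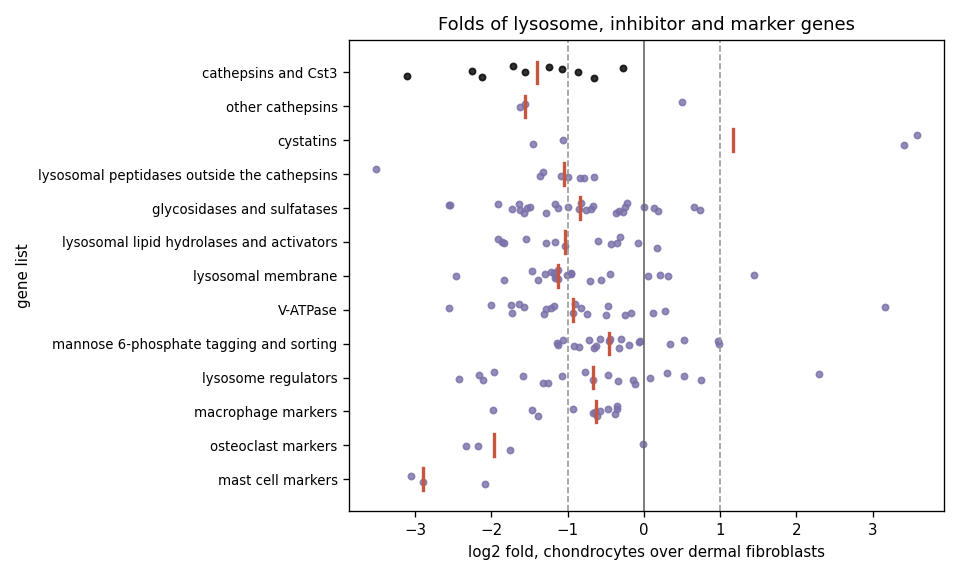
Log2 fold of chondrocytes over dermal fibroblasts for the 9 cathepsins with *Cst3* (black) and for the genes of each list with at least 10 counts in a library (points), with the list's median as a bar. The solid line is the median of all genes and the dashed lines mark 2-fold. The medians are -1.40 for the cathepsins with *Cst3*, -1.13 for the membrane proteins and -0.46 for the sorting genes.

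The other cathepsin genes were few. *Ctss*, the cathepsin of antigen-presenting cells, had 255 counts in chondrocytes against 771 in dermal fibroblasts, with a fold of 2.94 (interval 2.55 to 3.40), and *Ctso* had 145 and 461 counts, a fold of 3.10 (interval 2.56 to 3.76). *Ctsw* had 11 and 8 counts, *Ctse* and *Ctsg* had 3 counts or fewer in each library, and the 9 cathepsin genes of the placental cluster had 0 counts in both.

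Macrophages are rich in cathepsins, and their markers lay in the same direction. All 12 macrophage markers with at least 10 counts in a library were higher in dermal fibroblasts, 3 of them over 2-fold. Of all genes tested, 50.2% were higher in dermal fibroblasts and 16.2% were so by over 2-fold. The 13 markers summed to 146 CPM in chondrocytes and 255 CPM in dermal fibroblasts. *Lyz2* had 1046 and 1639 counts, a fold of 1.53, *Cd68* had 423 and 600, a fold of 1.38, and *Mrc1* had 157 and 635, a fold of 3.94. *Fcer1g* had 41 and 117 counts, a fold of 2.78 (interval 1.93 to 4.07). *Csf1r* had 160 and 430 counts, a fold of 2.62 (interval 2.18 to 3.16). No macrophage marker was at 0 in either library. *C1qa*, *C1qb* and *C1qc* had folds from 1.27 to 1.31 with intervals that included 1. *Csf1r* and *C1qb* were named after their values were seen. Mast cell markers summed to 0.893 and 5.70 CPM, with *Ms4a2* at 0 in chondrocytes and at 1 count in dermal fibroblasts. Osteoblast markers were higher in chondrocytes, where they summed to 131 CPM against 52.5 CPM. The part of macrophages and of the other cell types in the cathepsin reads was not tested.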

How the data were processed

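Total RNA of 1 chondrocyte and 1 dermal fibroblast culture was made into stranded mRNA libraries and sequenced as 75 bp single-end reads. Per the labels, base calling used CASAVA 1.8.2 and mapping to mm10 used TopHat2 2.0.13, Bowtie2 2.2.3 and SAMtools 0.1.19. The deposited table lists, for each gene symbol, an unscaled integer count in each library. The counting program, its annotation and its strand setting are not given in the sources used here. Library sizes were corrected by TMM factors of 0.954 for chondrocytes and 1.048 for dermal fibroblasts (edgeR 4.0.16, R 4.3.3). For folds, any count below 3 was replaced by 3. Folds and shares have 95% Clopper-Pearson intervals, and ratios between 2 genes have intervals from their Poisson variance on the log scale. The libraries had no molecular identifiers, so that reads may be copies of a molecule and these intervals describe counting error alone. A gene was tested with at least 10 counts in at least 1 library and counted with a fold over 2. Calculations used pandas 2.3.3, scipy 1.17.1 and numpy 2.4.6 under Python 3.11.15 and were tested on simulated counts. The GENCODE vM1 annotation gave exon lengths only, since its build differs, and gene positions are those of RefSeq on GRCm38. Alternatives were other scalings, among them DESeq2 1.42.0 size factors, floors of 1 and 10 counts, other fold thresholds and other filters. All 10 genes were named, and from each list the 3 genes with the most counts, the 2 with the largest fold in each direction (of those reaching 100 counts in a library) or, with under 10 genes measured, any. Genes outside this rule are marked or named as 0, overlapping or low. The genes and lists were chosen with earlier results of these data known.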

Additional observations from a re-analysis of the deposited data

How the results depend on the processing

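No paired analysis was possible because chondrocytes and dermal fibroblasts had 1 library each. All 10 genes were higher in dermal fibroblasts under each of the 5 other scalings, and of 50 folds 18 left the counting interval of the TMM value. Total counts moved all log2 folds of chondrocytes over dermal fibroblasts by -0.14 and *Actb* moved them by 0.12. The number over 2-fold was 8 with total counts, where *Cst3* reached 2.01, and 6 with *Actb*, where *Ctsl* fell to 1.94. *Ctsk* ranged from 7.92 to 9.48 and *Ctsd* from 1.12 to 1.33. The median log2 fold stayed between -1.53 and -1.28. With a fold over 1.5, 9 genes passed, and with a fold over 4, 3 genes, both with TMM factors. Of these 3, *Ctsb* fell to 3.99 with *Actb*. Among all genes, 2319 passed 2-fold toward dermal fibroblasts and 1684 toward chondrocytes. These became 3510 and 2851 with a fold over 1.5, 929 and 713 with a fold over 4, and 1485 and 981 among genes with at least 100 counts. With the whole interval beyond 2-fold, 1031 genes were higher in chondrocytes. Fewer or more genes pass these settings by construction. For the 7 lysosome lists, the 57 genes higher in dermal fibroblasts ranged from 50 to 63 across the scalings and became 9 with a fold over 4. The 3 higher in chondrocytes became 5 with the upper quartile, without the most abundant genes and with *Actb*, and 8 with a fold over 1.5. Of 20 levels per kb, 10 left their counting interval with the longest transcript. The depth limits *Ctsc* and *Ctsf* most among the 10 genes.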
